A study of Mus musculus with 36 samples.

Results

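The insulin-like growth factor (IGF) system was examined through 10 of its genes: the ligands Igf1 and Igf2, the receptors Igf1r and Igf2r, and the binding proteins Igfbp2, Igfbp3, Igfbp4, Igfbp5, Igfbp6 and Igfbp7. The members were taken by gene name from the 20325 genes listed for each library, and all 10 were found and passed the filter on low counts in every fit. The set was chosen by the day 4 counts of Igf2 and Igfbp5, which were lower in cells given the inhibitor throughout. The values of that contrast are therefore described without a test for any member, and so are the other contrasts of Igf2 and Igfbp5 that use the same day 4 control libraries.

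IGF1 and IGF2 are secreted peptides that bind the tyrosine kinase receptor IGF1R, which signals through the PI3K, AKT and mTOR pathway to growth and survival. IGF2R, the mannose 6-phosphate receptor, carries IGF2 to lysosomes for degradation. The binding proteins hold the ligands outside the cell and can limit or prolong their action, and proteases such as PAPP-A release the ligands again. In the mouse embryo Igf2 is an imprinted gene of mesenchymal tissues, active on the paternal allele, and Igf2r is active mainly on the maternal allele.

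Polyadenylated RNA was sequenced in 36 libraries, 2 in each of 18 groups. The cells were mouse embryonic fibroblasts (MEFs) from E13.5 embryos that were homozygous, at Col1a1, for a cassette of Oct4 and Klf4 followed by an IRES and then Sox2 and c-Myc, with 2A peptides between the factors. They were heterozygous at Rosa26 for the reverse tetracycline transactivator, so that doxycycline starts reprogramming. SGC0946, an inhibitor of the histone methyltransferase DOT1L, or its solvent DMSO was added with the doxycycline. The timecourse had uninduced MEFs, day 2 cells with DMSO (control) or inhibitor, and 4 day 4 groups: DMSO only, inhibitor on days 0 to 2 (early window), on days 2 to 4 (mid window), or on days 0 to 4 (full window). In the sort experiment, cells were separated into CDH1- and CDH1+ fractions by flow cytometry after 3.5 days of doxycycline and then kept in doxycycline with DMSO or inhibitor to day 5.5. The lentivirus experiment had uninduced MEFs with an empty or a Cdh1 lentivirus, and day 2 cells with either virus and either DMSO or inhibitor. V6.5 mouse embryonic stem cells (ESCs), for which no transgene is named, were freed of feeder cells 24 h before harvest. Every fibroblast group carried the same cassette and transactivator, and each inhibitor group and its control were both given doxycycline. The reprogramming cells grew on irradiated feeder MEFs, whose RNA cannot be separated from theirs, and the labels name no clone, litter or culture for a replicate.

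Expected counts per library summed to 32883668 to 50866706 in the timecourse, 34927901 to 43123011 in the sort, 18534377 to 35852109 in the lentivirus experiment and 30694671 to 35161935 in ESCs. All 14 fibroblast markers of a fixed list reached 1 CPM in the timecourse MEFs, and all 10 pluripotent markers did so in ESCs, summing to 3889 to 4049 CPM there against 0.76 to 1.07 CPM in the timecourse MEFs. A label of the second Cdh1 virus MEF library calls it a day 2 sample, while its title and treatment say uninduced, and it was kept as MEFs. CPM is the count per 1000000 counts of a library after TMM scaling within an experiment, so values of different experiments are on separately scaled axes. TPM corrects for gene length and is used wherever genes are compared with each other. Changes are edgeR log2 fold changes ± SE with Benjamini-Hochberg adjusted p-values over all genes. Since nothing says that replicates came from separate cultures, the p-values measure the spread between these samples only. In bulk RNA, fewer cells of a type and less RNA per cell cannot be told apart.

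Windows of 300 bases around the RefSeq gene starts (250 bases before to 50 after, build GRCm38.p6) were found for 10 of 10 members. They are shown for the neighbours Igfbp2 and Igfbp5, which lie next to each other on chromosome 1 and moved in opposite directions in mid against early window cells, for Igfbp4, which moved with Igfbp2, and for Igf2. The windows are 1 of 2 listed starts for Igfbp2 and 1 of 4 for Igf2. Capitals mark matches to the TATA box letters TATAAA, the variant with the letters TATTTAA, or the GC box letters GGGCGG, on either strand, and no 2 matches overlapped in these windows.
Igfbp5, chr1:72874816-72875115, minus strand: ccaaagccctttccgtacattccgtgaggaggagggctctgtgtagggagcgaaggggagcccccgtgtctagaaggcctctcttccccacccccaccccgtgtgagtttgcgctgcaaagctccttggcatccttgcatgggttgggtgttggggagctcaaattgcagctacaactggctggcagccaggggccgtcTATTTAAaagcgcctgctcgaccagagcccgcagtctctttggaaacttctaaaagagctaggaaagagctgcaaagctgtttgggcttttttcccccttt
Igfbp2, chr1:72824230-72824529, plus strand: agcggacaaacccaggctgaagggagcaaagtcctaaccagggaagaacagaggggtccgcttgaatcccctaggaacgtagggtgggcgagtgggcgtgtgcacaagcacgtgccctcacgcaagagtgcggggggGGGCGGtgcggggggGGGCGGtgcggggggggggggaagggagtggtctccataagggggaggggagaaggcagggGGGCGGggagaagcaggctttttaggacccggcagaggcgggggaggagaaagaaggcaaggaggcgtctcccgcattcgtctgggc
Igfbp4, chr11:99040994-99041293, plus strand: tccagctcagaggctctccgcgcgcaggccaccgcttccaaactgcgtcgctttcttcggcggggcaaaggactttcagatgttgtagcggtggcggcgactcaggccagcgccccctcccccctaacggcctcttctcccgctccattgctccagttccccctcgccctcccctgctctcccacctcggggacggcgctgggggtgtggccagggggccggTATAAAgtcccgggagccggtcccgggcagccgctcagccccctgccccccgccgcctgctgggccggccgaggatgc
Igf2, chr7:142657447-142657746, minus strand: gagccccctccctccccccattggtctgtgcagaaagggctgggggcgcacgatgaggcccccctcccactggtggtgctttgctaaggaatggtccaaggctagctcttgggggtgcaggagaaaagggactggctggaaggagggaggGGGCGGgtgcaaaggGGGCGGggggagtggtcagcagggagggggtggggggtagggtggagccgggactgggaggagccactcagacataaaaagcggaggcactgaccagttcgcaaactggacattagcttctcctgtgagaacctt
The Igfbp5 window held 1 TATTTAA, beginning 51 bases before the start, and 10 CpG dinucleotides. The Igfbp2 window held 3 GGGCGG and 18 CpG (the window of its other start held 0 and 14), the Igfbp4 window 1 TATAAA, beginning 28 bases before the start, and 27 CpG, and the Igf2 window 2 GGGCGG and 7 CpG. Of 32851 such windows of the genome, 13.6% held TATAAA, 4.51% TATTTAA and 35.7% GGGCGG, and the median CpG count was 7. The matches describe letters, and which start of Igfbp2 or Igf2 the cells used was not measured.

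In uninduced timecourse MEFs, Igf2 had the highest level of the 10 genes, at 1799 ± 23.4 TPM (SD, n = 2), followed by Igfbp7 at 720 ± 50.5 TPM. Igf2r stood at 194 ± 15.3, Igfbp5 at 146 ± 8.12, Igfbp3 at 120 ± 1.21 and Igfbp6 at 115 ± 5.80 TPM. The last of these pairs, Igfbp3 and Igfbp6, differed by less than 1 SD. Igfbp4 (85.8 ± 0.389 TPM), Igfbp2 (78.0 ± 5.08 TPM), Igf1r (23.8 ± 3.44 TPM) and Igf1 (7.02 ± 0.594 TPM) completed the order. At day 2 without inhibitor Igfbp3 led at 326 ± 1.96 TPM, ahead of Igfbp7 (205 ± 5.06 TPM) and Igf2 (174 ± 2.62 TPM). At day 4 Igfbp3 led at 511 ± 1.86 TPM with Igf2 next at 294 ± 3.02 TPM, and in the sorted CDH1- control cells of day 5.5 Igfbp7 led at 510 ± 24.9 TPM. ESCs had another order: Igfbp2 led at 381 ± 14.5 TPM, with Igfbp3 at 34.6 ± 2.24 TPM in second place. Igf1 had the lowest mean level of the 10 in the timecourse MEFs, the day 2 and day 4 controls, the CDH1- controls and the ESCs.

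**Figure D1:**
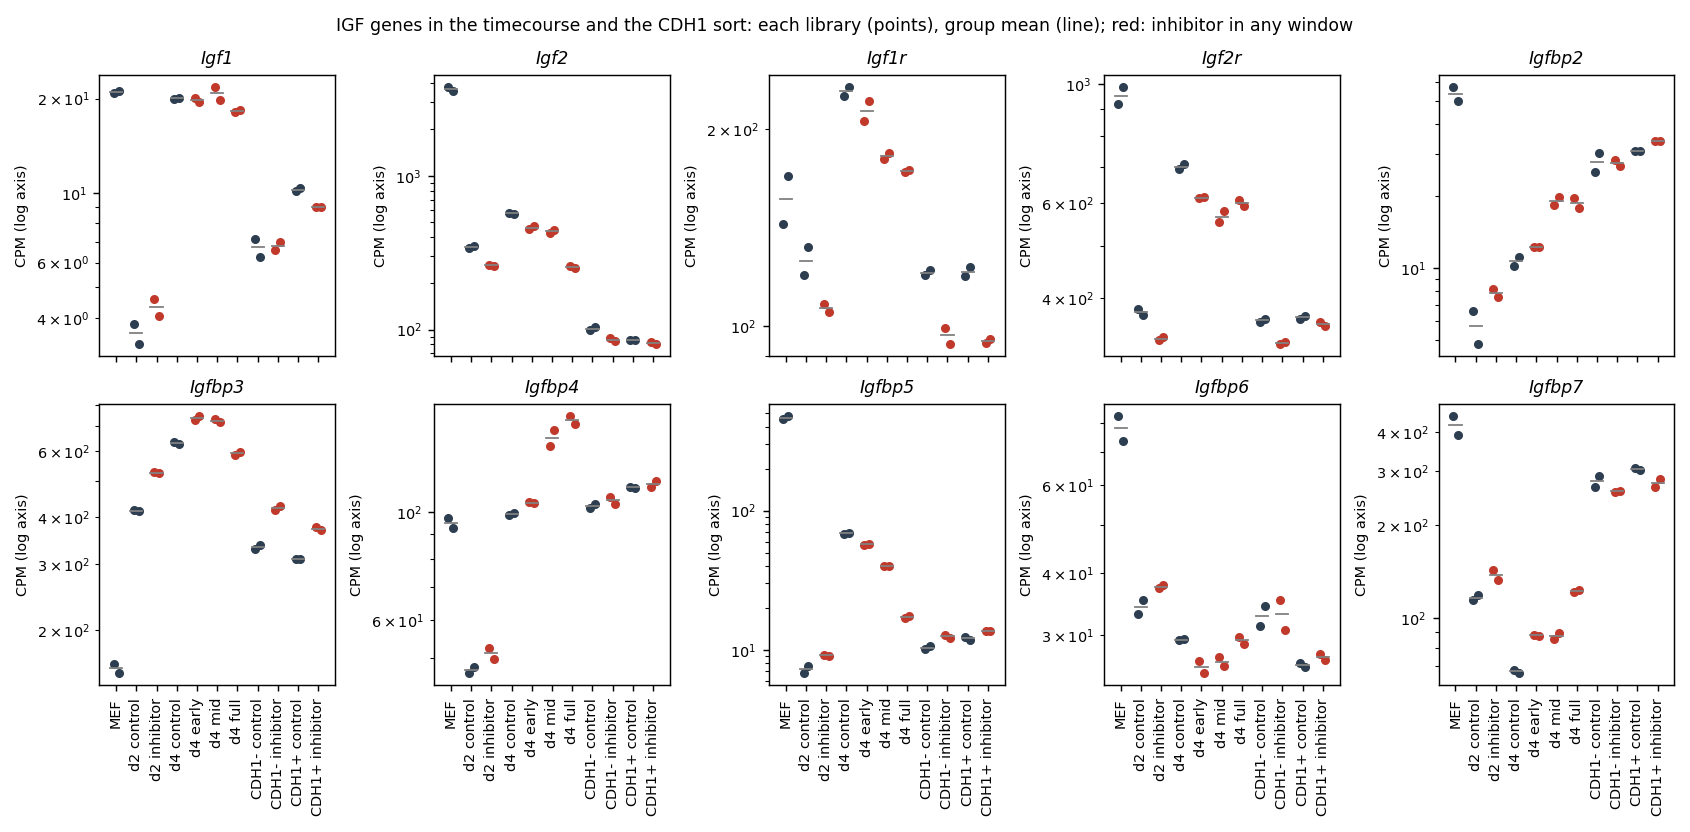
Level of each IGF gene (CPM, log axis) in every timecourse and sort library, with points for libraries and a line for the mean of 2, red where the inhibitor was present in any window. Igf2 falls from 3759 and 3546 CPM in MEFs to 340 and 349 CPM at day 2, and Igfbp5 steps down across the day 4 windows from 68.4 and 69.0 to 17.0 and 17.6 CPM.

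In the timecourse, ligand RNA exceeded binding protein RNA in MEFs and was below it at days 2 and 4. The 2 ligands summed to 1806 ± 22.8 TPM in MEFs, 175 ± 2.15 at day 2 and 300.3 ± 2.72 at day 4 without inhibitor, and to 139 ± 0.891 at day 4 with the full window. The 6 binding proteins summed to 1265 ± 54.9 TPM in MEFs, 638 ± 4.46 at day 2 and 815 ± 0.219 at day 4, and to 942 ± 7.79 with the full window. In MEFs with the empty virus the order was the other way, 2512 ± 199 TPM for the ligands and 3026 ± 32.2 TPM for the binding proteins. These sums count Igfbp7, whose protein has low affinity for the IGFs, at 461 ± 24.6 TPM in those MEFs. Whether the order there holds without Igfbp7 was not tested. The lentivirus samples are described without paired-end reads, and the part of that in this difference was not tested. Igfbp7 made up 56.9% of the summed binding protein TPM in MEFs and Igfbp3 9.53%. At day 4 without inhibitor the shares were 15.1% and 62.7%, and in ESCs Igfbp2 made up 84.7%.

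**Figure D2:**
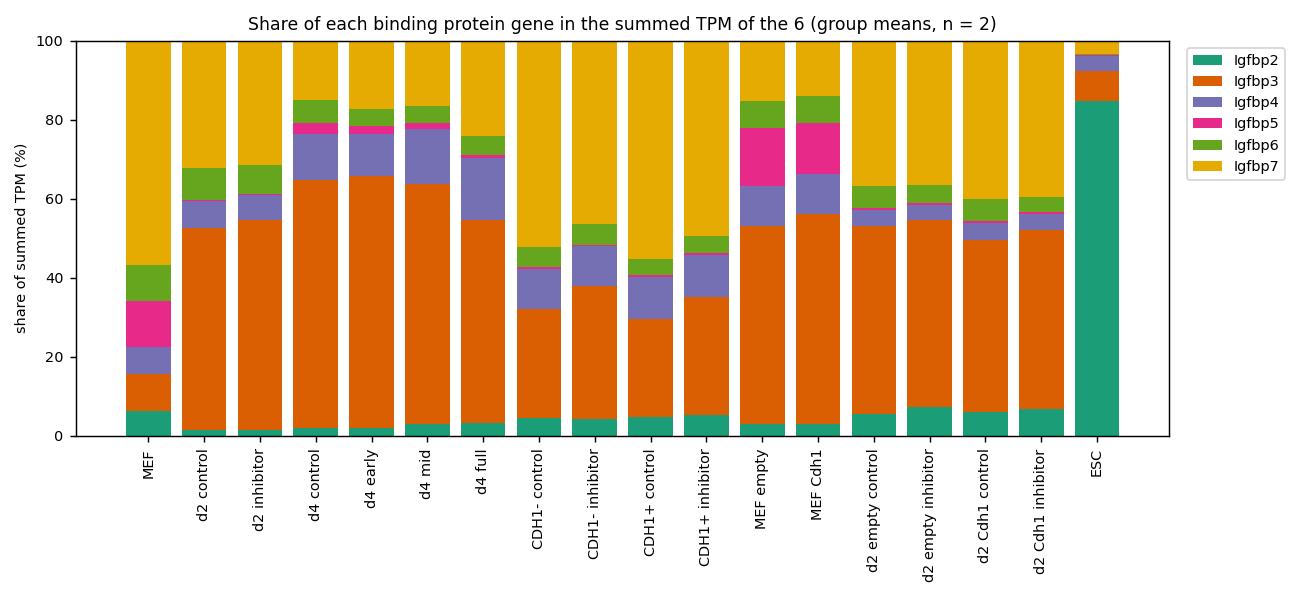
Share of each binding protein gene (%) in the summed TPM of the 6 binding protein genes, as stacked bars of group means (n = 2). Igfbp7 holds the largest share in timecourse MEFs (56.9%), Igfbp3 at day 4 without inhibitor (62.7%) and Igfbp2 in ESCs (84.7%).

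Counted over comparisons, every member changed while the cells reprogrammed without inhibitor. From MEFs to day 2 in the timecourse, 1 member was higher and 9 were lower, where 74.4% of all genes tested were called (40.4% higher, 34% lower). From day 2 to day 4, of the 8 members other than Igf2 and Igfbp5, 6 were higher and 2 lower, against 77.8% of all genes (38.1% higher, 39.7% lower). In the cells with the empty virus, 8 members were lower at day 2 than in MEFs and none was higher, against 66% of all genes (33.4% higher, 32.7% lower). ESCs differed from MEFs with the empty virus in all 10, with 9 lower and 1 higher, against 88.7% of all genes (44.5% higher, 44.1% lower). With most genes called, the direction and size of each gene carry more than these counts.

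The inhibitor changed 7 members at day 2 in the timecourse (4 higher, 3 lower), where 17.8% of all genes were called (8.73% higher, 9.11% lower). Fewer members were called with any 1 library of that contrast left out. At day 4, of the 8 members other than Igf2 and Igfbp5, the early window changed 4 (2 higher, 2 lower; 5.63% of all genes, 3.19% higher and 2.45% lower) and the mid window 6 (27.4% of all genes). The full window, the contrast that chose the set, gave 8 of all 10 (3 higher, 5 lower; 34.8% of all genes, 19% higher and 15.8% lower), and nothing is read from that count. These 3 contrasts share the day 4 control libraries. Mid against early window cells, which uses none of them, gave 5 calls among all 10 members (2 higher, 3 lower; 21.2% of all genes, 10.3% higher and 11% lower). That count was 3 without replicate 2 of the early window or without replicate 1 of the mid window.

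Without inhibitor, CDH1+ cells differed from CDH1- cells at day 5.5 in 8 members (5 higher, 3 lower; 26.6% of all genes, 12.8% higher and 13.8% lower). The count was 5 to 7 with any 1 of the 4 libraries left out, and the calls of Igfbp2 (0.16 ± 0.06 log2, adjusted p = 0.0267) and Igfbp5 (0.22 ± 0.09 log2, adjusted p = 0.0436) were among those lost. Igfbp2 lost it without CDH1- replicate 1 (0.726), CDH1+ replicate 1 (0.1001) or CDH1+ replicate 2 (0.104), Igfbp5 without any of the 4 (0.0648 to 0.257), and Igfbp7 without CDH1- replicate 1 (0.0758). DESeq2 called neither Igfbp2 (0.151) nor Igfbp5 (0.157), and limma on TPM called neither Igfbp5 (0.0579) nor Igfbp3 (0.0800).

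At day 5.5 the inhibitor changed 6 members in CDH1- cells (2 higher, 4 lower; 18.7% of all genes, 7.82% higher and 10.8% lower) and 3 in CDH1+ cells (1 higher, 2 lower; 18.8% of all genes, 8.33% higher and 10.5% lower). The difference between these inhibitor effects was called by edgeR for 0 of 10 members (0.186% of all genes), with 2 members at an unadjusted p under 0.05 and 0 called by DESeq2 or limma. At day 2 with the empty virus 4 members changed (3 higher, 1 lower; 6.73% of all genes, 3.22% higher and 3.52% lower). With the Cdh1 virus 6 did (5 higher, 1 lower; 5.05% of all genes, 2.82% higher and 2.23% lower), a count that fell to 3, 3 and 2 without Cdh1 virus control replicate 1, control replicate 2 or inhibitor replicate 2. The empty virus count fell to 2 without inhibitor replicate 1. For the difference between the 2 viruses in the inhibitor effect edgeR called 0 of 10 (0% of all genes), with 5 members at an unadjusted p under 0.05, 1 called by DESeq2 and 0 by limma.

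**Figure D3:**
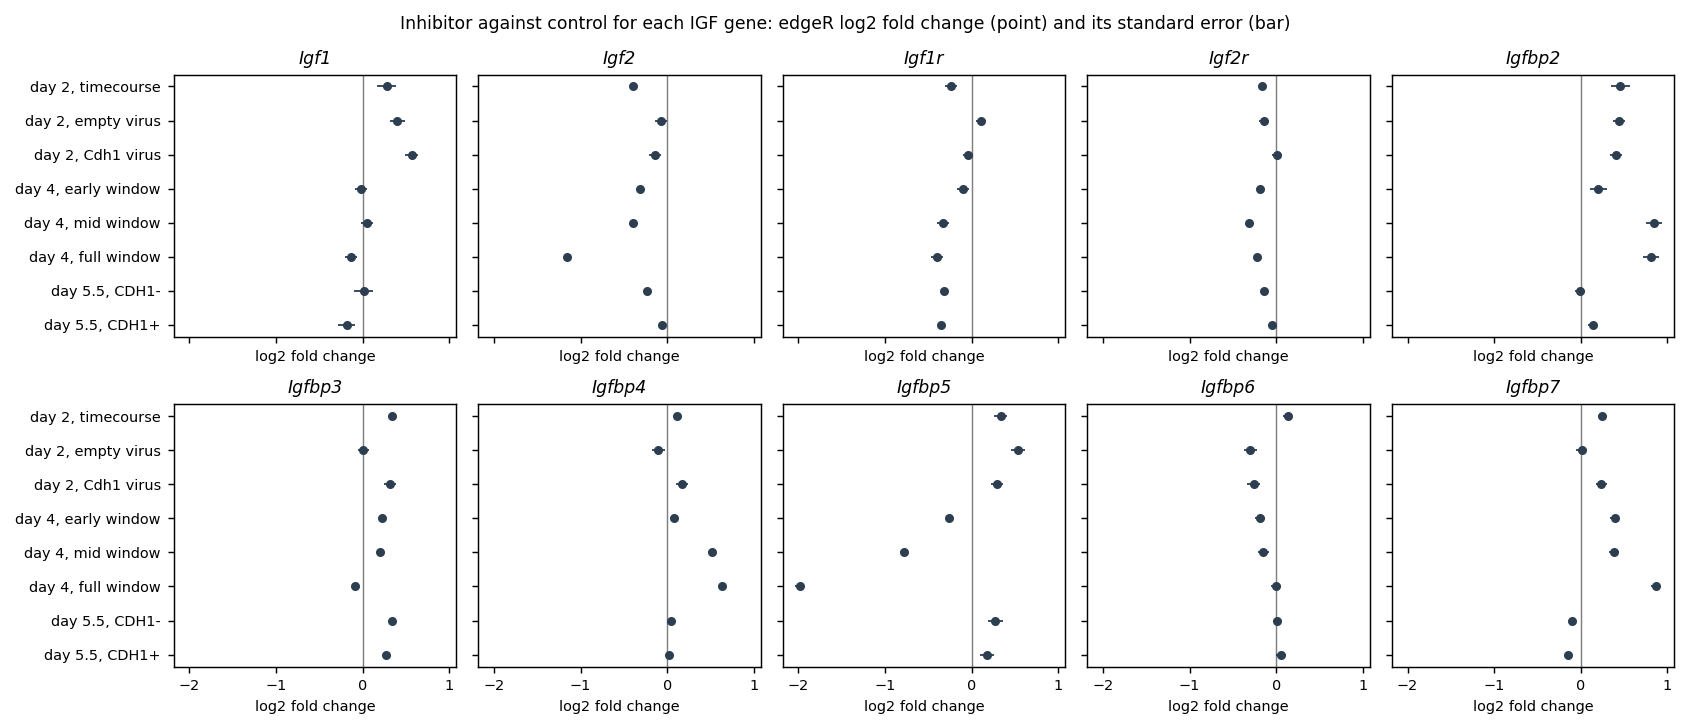
edgeR log2 fold change (points) and SE (bars) of inhibitor against control for each IGF gene in 8 comparisons. The 3 day 4 contrasts share control libraries, Igfbp2 is to the right of 0 in the 3 day 2 comparisons (0.46, 0.44 and 0.41), and Igfbp5 is to the right of 0 at day 2 but to the left at day 4.

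Igf2, the fetal growth factor ligand, fell steeply at the start of reprogramming. It was at 3759 and 3546 CPM in timecourse MEFs and at 340 and 349 CPM at day 2, a change of -3.41 ± 0.04 log2 (10.6-fold lower, adjusted p = 7.42e-45). The groups did not overlap. In the lentivirus experiment Igf2 went from 4147 and 3675 CPM in MEFs to 731 and 709 CPM at day 2, -2.44 ± 0.07 log2 (adjusted p = 1.02e-18), so both MEF preparations started high and the virus-carrying cells fell less. At day 4 without inhibitor the libraries stood at 574 and 564 CPM, 1.65-fold above day 2. Sorted cells at day 5.5 had 98.6 and 103 CPM in the CDH1- and 85.8 and 85.2 CPM in the CDH1+ control fraction, -0.24 ± 0.04 log2 in CDH1+ against CDH1- cells (adjusted p = 4.23e-08). ESCs held the least, 23.0 and 22.7 CPM, -7.42 ± 0.09 log2 against MEFs with the empty virus. Fibroblast markers moved with Igf2 over part of these groups. Their sum was 27504 to 27613 CPM in timecourse MEFs, 7977 to 8230 at day 2, 8919 to 8942 at day 4 and 242 to 272 CPM in ESCs, with all 14 at or above 1 CPM in each of these groups but ESCs (13 of 14). In the sorted controls, where Igf2 was lower than at day 4, the marker sum was 8501 to 8946 CPM (CDH1-) and 8631 to 8642 CPM (CDH1+), close to that of day 4 on a separate scale. The part of these markers in the Igf2 levels was not tested.

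With the inhibitor at day 2, Igf2 was at 264 and 260 CPM against 340 and 349 CPM in the controls, below both. The change was -0.40 ± 0.03 log2 (adjusted p = 1.50e-11). This contrast uses no library of the contrast that chose the set. In CDH1- cells of day 5.5 Igf2 was also lower with the inhibitor, 87.5 and 84.7 against 98.6 and 103 CPM (-0.23 ± 0.04 log2, adjusted p = 1.49e-07). In CDH1+ cells it was at 83.3 and 80.9 against 85.8 and 85.2 CPM (-0.06 ± 0.04 log2, adjusted p = 0.280), and the difference between the fractions was 0.17 ± 0.05 log2 (adjusted p = 0.265). With the empty virus at day 2 it was at 671 and 703 against 731 and 709 CPM (-0.07 ± 0.07 log2, adjusted p = 0.622), and with the Cdh1 virus at 733 and 647 against 742 and 776 CPM (-0.14 ± 0.07 log2, adjusted p = 0.278). The fibroblast marker sum at day 2 in the timecourse was 8394 to 8476 CPM with and 7977 to 8230 CPM without inhibitor. At day 5.5 in CDH1- cells it was 7971 to 8434 CPM with and 8501 to 8946 CPM without inhibitor. The part of these markers was not tested in either.

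Day 4 Igf2 libraries were highest without inhibitor and lowest with the full window. Igf2 was chosen for that fall, so the order is a description only. They were at 574 and 564 CPM without inhibitor, 449 and 468 with the early, 427 and 441 with the mid and 257 and 252 CPM with the full window. Against the shared controls these are changes of -0.31 ± 0.03, -0.39 ± 0.03 and -1.16 ± 0.03 log2, given without a test. Mid against early window cells, which uses neither the controls nor the full window, gave -0.08 ± 0.03 log2 (adjusted p = 0.0835). That difference was called by DESeq2 (adjusted p = 0.0439), without a filter on low counts (0.0335) and with RLE scaling (0.0470).

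**Figure D4:**
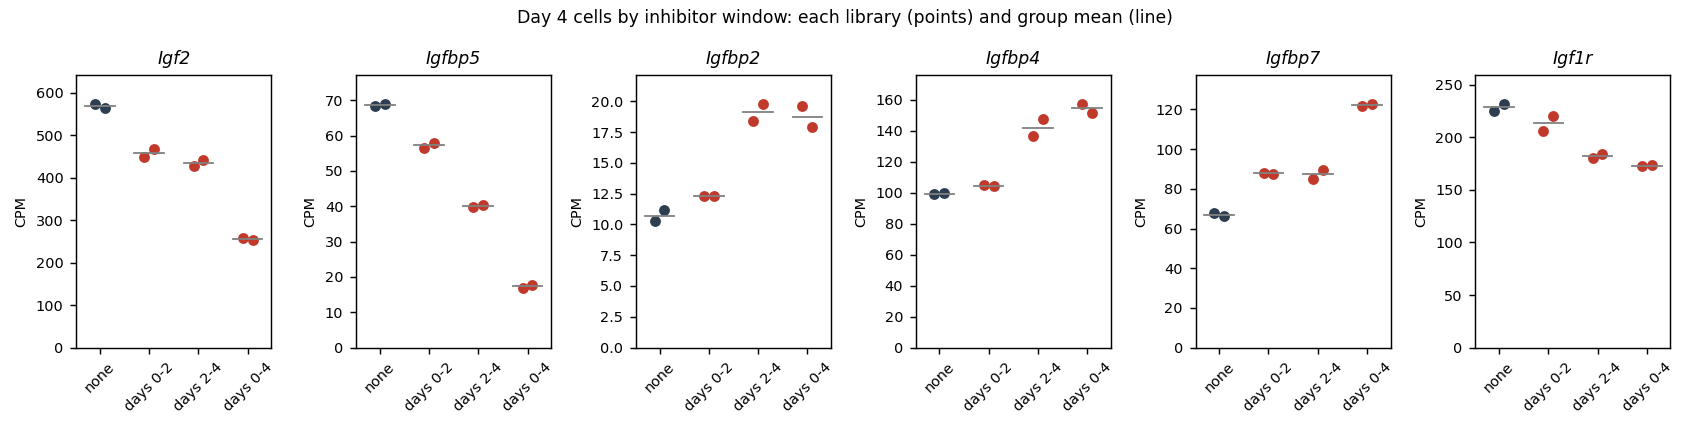
CPM of 6 IGF genes in the 8 day 4 libraries by inhibitor window (points, libraries; lines, means of 2; axes start at 0). Igf2 and Igfbp5 are lowest with the inhibitor on days 0 to 4, at 257 and 252 CPM and at 17.0 and 17.6 CPM, while Igfbp2 and Igfbp4 are at similar levels in the days 2 to 4 and days 0 to 4 windows.

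Igf1, the ligand made in quantity by liver, fibroblasts and macrophages in the adult, was low in the timecourse and much higher in the MEFs with virus. Timecourse MEFs had 20.8 and 21.2 CPM, day 2 cells 3.83 and 3.31 CPM and day 4 cells 20.0 and 20.2 CPM. The fall to day 2 (-2.56 ± 0.09 log2, adjusted p = 4.77e-26) and the rise to day 4 (2.49 ± 0.09 log2, adjusted p = 1.32e-25) brought it to values close to those of MEFs. MEFs with the empty virus had 253 and 243 CPM, and their day 2 cells 23.0 and 22.6 CPM (-3.45 ± 0.08 log2, adjusted p = 5.52e-21). ESCs had 0.538 and 0.769 CPM. In sorted control cells Igf1 was at 10.1 and 10.4 CPM in the CDH1+ and 7.15 and 6.28 CPM in the CDH1- fraction (0.61 ± 0.10 log2, adjusted p = 6.51e-07). Macrophage markers moved the same way in each of these comparisons. The 12 of them summed to 294 to 302 CPM in timecourse MEFs, 64.3 to 67.5 at day 2, 246 to 252 at day 4, 99.3 to 99.8 in the CDH1+ and 11.5 to 11.8 CPM in the CDH1- controls. They summed to 1403 to 1515 CPM in MEFs with the empty virus, 279 to 292 CPM in their day 2 cells and 26.8 to 28.4 CPM in ESCs. Lyz2 alone made up 77.3% of the sum in MEFs with the empty virus and 59.4% in their day 2 cells, against 48.1% in timecourse MEFs. Of the 12, 11 reached 1 CPM in the timecourse, CDH1+ and virus groups named here, 3 in the CDH1- controls and 6 in ESCs, none was at 0, and their part in the Igf1 levels was not tested.

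The inhibitor raised Igf1 in the virus-carrying day 2 cells. With the empty virus the libraries were at 31.7 and 28.7 against 23.0 and 22.6 CPM (0.40 ± 0.08 log2, adjusted p = 0.00418), and with the Cdh1 virus at 27.4 and 32.3 against 20.6 and 19.7 CPM (0.57 ± 0.08 log2, adjusted p = 0.000188). Neither pair of groups overlapped. The empty virus call was lost without inhibitor replicate 1 (adjusted p = 0.0852) and with limma on TPM (0.110). The macrophage marker sum was lower with inhibitor in the empty virus cells (235 to 244 against 279 to 292 CPM). It was higher in the Cdh1 virus cells (119 to 126 against 110 to 115 CPM). Lyz2 alone made up 49.3% to 59.4% of the sum in these groups, and the part of these markers was not tested. In the timecourse at day 2 Igf1 was at 4.61 and 4.05 against 3.83 and 3.31 CPM (0.28 ± 0.11 log2, adjusted p = 0.0811). At day 4 it was between 18.2 and 21.7 CPM in the 8 libraries, and mid against early gave 0.07 ± 0.07 log2 (adjusted p = 0.544).

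Igf1r, the signalling receptor, ranged from 94.1 to 232 CPM over the fibroblast-derived libraries. It was at 144 and 170 CPM in timecourse MEFs, 120 and 132 at day 2 and 225 and 232 at day 4 without inhibitor. The fall to day 2 was -0.31 ± 0.07 log2 (adjusted p = 0.00239) and the rise to day 4 0.86 ± 0.07 log2 (adjusted p = 6.66e-07). In the lentivirus experiment MEFs had 136 and 134 CPM and day 2 cells 143 and 140 CPM (0.07 ± 0.05 log2, adjusted p = 0.232). That small rise had the other sign, -0.13, with limma on TPM. ESCs were at 39.3 and 41.1 CPM (-1.74 ± 0.06 log2 against MEFs with the empty virus).

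Igf1r was lower with the inhibitor in both fractions of the sort. CDH1- cells had 99.6 and 94.1 against 120 and 122 CPM (-0.32 ± 0.03 log2, adjusted p = 3.86e-13), and CDH1+ cells 94.5 and 95.7 against 119 and 123 CPM (-0.35 ± 0.03 log2, adjusted p = 2.40e-15). No inhibitor library overlapped a control library, and the fractions themselves differed by 0.00 ± 0.03 log2 without inhibitor. At day 2 in the timecourse Igf1r was at 108 and 105 against 120 and 132 CPM (-0.24 ± 0.07 log2, adjusted p = 0.0469). That call was lost without control replicate 2 (adjusted p = 0.214), inhibitor replicate 1 (0.131) or inhibitor replicate 2 (0.226), and with RLE scaling (0.0511), upper quartile scaling (0.0568) or limma on TPM (0.111). At day 4 the libraries were at 225 and 232 CPM without inhibitor, 206 and 221 with the early, 180 and 184 with the mid and 172 and 173 with the full window. The mid window was lower than the controls (-0.33 ± 0.07 log2, adjusted p = 0.00541; 0.0601 without mid window replicate 1) and the early window was not called (-0.10 ± 0.07 log2, adjusted p = 0.534). Mid against early gave -0.23 ± 0.07 log2 (adjusted p = 0.0414), a call lost without early replicate 2 (0.210), mid replicate 1 (0.200) or mid replicate 2 (0.164). In day 2 cells with virus it was not called: 151 and 155 against 143 and 140 CPM with the empty virus (adjusted p = 0.238) and 156 and 157 against 161 and 163 CPM with the Cdh1 virus (adjusted p = 0.661).

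Igf2r, which removes IGF2, had more RNA per length than Igf1r in MEFs (194 ± 15.3 against 23.8 ± 3.44 TPM) and in ESCs (23.4 ± 1.53 against 5.74 ± 0.134 TPM). It fell from 919 and 988 CPM in timecourse MEFs to 382 and 371 CPM at day 2 (-1.34 ± 0.03 log2, adjusted p = 2.23e-31) and was at 695 and 710 CPM at day 4 (0.90 ± 0.03 log2, adjusted p = 2.69e-25). The fall was alike in the lentivirus experiment, 888 and 907 to 332 and 339 CPM (-1.42 ± 0.06 log2, adjusted p = 1.07e-15). Igf2r was lower with the inhibitor at day 2 in the timecourse, 334 and 338 against 382 and 371 CPM (-0.17 ± 0.03 log2, adjusted p = 0.000341), and this was not called with limma on TPM (0.0693). At day 4 the early window had 613 and 616 CPM (-0.19 ± 0.03 log2, adjusted p = 9.12e-05), the mid window 554 and 580 CPM (-0.31 ± 0.03 log2, adjusted p = 1.41e-09) and the full window 609 and 594 CPM, all below the controls. In CDH1- cells the inhibitor libraries were at 328 and 330 against 361 and 365 CPM (-0.14 ± 0.03 log2, adjusted p = 1.01e-05). Igf2r was not called with the inhibitor in CDH1+ cells, at 360 and 354 against 366 and 370 CPM. Nor was it called at day 2 with the empty virus (299 and 309 against 332 and 339 CPM) or the Cdh1 virus (328 and 322 against 323 and 324 CPM). Mid against early gave -0.12 ± 0.03 log2 (adjusted p = 0.00921), a call lost without early replicate 2 (0.0714) or mid replicate 1 (0.119) and with limma on TPM (0.0576). The tested changes of Igf2r with the inhibitor reached at most 1.24-fold, in the mid window, against 2.53-fold from MEFs to day 2.

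Igfbp5, a binding protein that also attaches to the extracellular matrix, had the largest change of the set in both fibroblast experiments. It went from 457 and 475 CPM in timecourse MEFs to 6.87 and 7.64 CPM at day 2 (-6.00 ± 0.05 log2, 64.1-fold lower, adjusted p = 6.10e-48). In empty virus cells it went from 1162 and 1095 to 10.6 and 10.9 CPM (-6.71 ± 0.08 log2, adjusted p = 4.93e-26). At day 4 without inhibitor it was back at 68.4 and 69.0 CPM, 9.46-fold above day 2, while the sorted control cells of day 5.5 had 10.1 and 10.6 CPM (CDH1-) and 12.4 and 11.7 CPM (CDH1+). ESCs had 2.02 and 1.80 CPM.

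Igfbp5 was higher with the inhibitor at day 2, in 3 separate comparisons, and lower at day 4, where the contrast with the controls is not tested. The timecourse libraries were at 9.24 and 9.10 against 6.87 and 7.64 CPM (0.34 ± 0.07 log2, adjusted p = 0.00105; 0.0607 without control replicate 1). Cells with the empty virus had 14.8 and 16.2 against 10.6 and 10.9 CPM (0.53 ± 0.08 log2, adjusted p = 0.000291). Cells with the Cdh1 virus had 19.3 and 19.1 against 16.1 and 15.3 CPM (0.29 ± 0.07 log2, adjusted p = 0.0235), a call lost without control replicate 1 (0.0724), control replicate 2 (0.238) or inhibitor replicate 2 (0.0831), with limma on TPM (0.0636) and with only these groups in the fit (0.124). The inhibitor and control libraries did not overlap in any of the 3, and the levels were low in all. In CDH1+ cells of day 5.5 it was not called, at 13.8 and 13.6 with inhibitor against 12.4 and 11.7 CPM. In CDH1- cells of day 5.5 it was again higher, 12.7 and 12.2 against 10.1 and 10.6 CPM (0.27 ± 0.09 log2, adjusted p = 0.0145). This call was lost without control replicate 1 (0.124), without inhibitor replicate 1 (0.113) and with DESeq2 (0.0920).

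At day 4 Igfbp5 stepped down across the windows. It was chosen for its fall with the full window, so the order is a description only. It was at 68.4 and 69.0 CPM without inhibitor, 56.6 and 58.0 with the early, 39.8 and 40.3 with the mid and 17.0 and 17.6 CPM with the full window. The changes against the shared controls were -0.26 ± 0.04, -0.78 ± 0.04 and -1.99 ± 0.05 log2, given without a test. Mid against early window cells gave -0.52 ± 0.04 log2 (1.43-fold lower, adjusted p = 6.60e-12). The Cdh1 virus raised Igfbp5 at day 2, 16.1 and 15.3 against 10.6 and 10.9 CPM with the empty virus (0.55 ± 0.08 log2, adjusted p = 0.000275). It was the only member called in that comparison, where 0.897% of all genes were called (0.146% higher, 0.751% lower). DESeq2, no filter on low counts, and only these groups in the fit each gave 2 members. Pluripotent markers summed to 3.81 to 3.97 CPM with the Cdh1 virus and 9.07 to 11.5 CPM with the empty virus, and their part was not tested. In MEFs the Cdh1 virus changed 0 of 10 members by edgeR (1.14% of all genes), with 3 at an unadjusted p under 0.05, 1 called by DESeq2 and 0 by limma.

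Igfbp2, the neighbour of Igfbp5 on chromosome 1 and a carrier of both ligands, was the only member with more RNA in ESCs than in MEFs, 286 and 275 against 53.0 and 48.8 CPM (2.46 ± 0.06 log2, adjusted p = 3.96e-21). In the timecourse it fell from 57.1 and 49.98 CPM in MEFs to 6.64 and 4.84 CPM at day 2 (-3.23 ± 0.09 log2, adjusted p = 2.10e-24). Cells with the empty virus kept most of it, 39.4 and 36.7 CPM at day 2 (-0.42 ± 0.07 log2, adjusted p = 6.95e-06). It was at 10.2 and 11.1 CPM at day 4 (0.90 ± 0.11 log2 above day 2, adjusted p = 5.67e-09) and at 25.2 and 30.3 CPM in CDH1- and 31.1 and 31.0 CPM in CDH1+ control cells of day 5.5.

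Igfbp2 was higher with the inhibitor in each day 2 comparison. It was at 8.17 and 7.55 against 6.64 and 4.84 CPM in the timecourse (0.46 ± 0.11 log2, adjusted p = 0.00346). That call was lost without control replicate 2 (adjusted p = 0.216, at 0.24 log2) and without inhibitor replicate 1 (0.0528). With the empty virus it was at 52.2 and 51.0 against 39.4 and 36.7 CPM (0.44 ± 0.07 log2, adjusted p = 0.000229) and with the Cdh1 virus at 51.6 and 51.8 against 37.5 and 40.6 CPM (0.41 ± 0.06 log2, adjusted p = 0.000672). None of the 3 pairs of groups overlapped. At day 4 it was at 10.2 and 11.1 CPM without inhibitor, 12.3 in both early, 18.4 and 19.8 in the mid and 19.6 and 17.9 CPM in the full window libraries. The mid window was called (0.84 ± 0.09 log2, adjusted p = 2.00e-08), the early window was not (0.20 ± 0.09 log2, adjusted p = 0.256), and mid against early gave 0.64 ± 0.09 log2 (adjusted p = 3.78e-06). At day 5.5 the inhibitor left it at 28.3 and 26.7 CPM in CDH1- cells, overlapping the controls (adjusted p = 0.939), and at 34.1 and 34.2 against 31.1 and 31.0 CPM in CDH1+ cells (adjusted p = 0.0737). Epithelial markers, 12 in the list, summed higher in each successive day 4 group, whereas the Igfbp2 values of the mid and full windows overlapped. The sums were 85.7 to 87.3 CPM without inhibitor, 107 to 108 early, 143 to 147 mid and 222 to 226 CPM with the full window, with 7 or 8 of them at or above 1 CPM and Esrp1 at 0 in the early and mid windows. Their part was not tested.

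Igfbp4, whose protein is cleaved by PAPP-A, went from 97.2 and 92.8 CPM in timecourse MEFs to 46.8 and 47.9 CPM at day 2 (-1.01 ± 0.04 log2, adjusted p = 2.00e-23) and 98.8 and 99.6 CPM at day 4 (1.07 ± 0.04 log2, adjusted p = 2.04e-24). MEFs with the empty virus had 277 and 275 CPM and their day 2 cells 47.0 and 49.4 CPM (-2.52 ± 0.07 log2, adjusted p = 2.74e-19), so the day 2 levels of the 2 experiments were close although the MEFs were not. The early window libraries of day 4 were at 105 and 104 CPM (0.08 ± 0.04 log2, adjusted p = 0.318), the mid at 136 and 147 CPM (0.52 ± 0.04 log2, adjusted p = 1.58e-13) and the full at 157 and 152 CPM. Mid against early gave 0.44 ± 0.04 log2 (adjusted p = 2.19e-11). Igfbp4 did not pass the test with the inhibitor at day 2 (52.6 and 49.9 against 46.8 and 47.9 CPM, adjusted p = 0.0731), with either virus, or in either fraction of the sort.

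Igfbp3, the main carrier of the IGFs in serum, was the only member to rise in the first 2 days of the timecourse. It went from 163 and 154 CPM in MEFs to 419 and 416 CPM at day 2 (1.40 ± 0.03 log2, adjusted p = 1.50e-32) and 635 and 629 CPM at day 4 (0.60 ± 0.03 log2, adjusted p = 1.44e-20). In the lentivirus experiment it fell instead, from 1616 and 1558 to 659 and 627 CPM (-1.30 ± 0.07 log2, adjusted p = 1.81e-14). The MEFs of the experiments therefore differed far more in Igfbp3 than their day 2 cells did, on their separate scales. The inhibitor raised Igfbp3 at day 2 in the timecourse to 528 and 526 CPM (0.34 ± 0.03 log2, adjusted p = 1.03e-10). It raised it at day 5.5 in CDH1- cells from 330 and 337 to 419 and 428 CPM (0.34 ± 0.03 log2, adjusted p = 1.77e-21) and in CDH1+ cells from 309 and 310 to 377 and 371 CPM (0.27 ± 0.03 log2, adjusted p = 1.12e-15). At day 4 the early window gave 728 and 745 CPM (0.22 ± 0.03 log2, adjusted p = 2.37e-06), the mid window 731 and 721 CPM (0.20 ± 0.03 log2, adjusted p = 2.44e-06) and the full window 588 and 597 CPM, below the controls. With the empty virus it was at 653 and 642 CPM against 659 and 627 CPM, overlapping (adjusted p = 0.960). With the Cdh1 virus it was at 634 and 713 against 535 and 546 CPM (0.32 ± 0.07 log2, adjusted p = 0.00652), a call lost without control replicate 1 (0.0671), control replicate 2 (0.0714) or inhibitor replicate 2 (0.110), with limma on TPM (0.0558) and with only these groups in the fit (0.0637).

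Igfbp6, which binds IGF2 in preference to IGF1, fell from 82.5 and 73.7 CPM in timecourse MEFs to 33.1 and 35.3 CPM at day 2 (-1.19 ± 0.05 log2, adjusted p = 3.45e-23) and 29.3 and 29.5 CPM at day 4 (-0.22 ± 0.06 log2, adjusted p = 0.000502; 0.0756 with upper quartile scaling). With the inhibitor it was lower in virus-carrying day 2 cells: 30.9 and 31.8 against 39.8 and 37.4 CPM with the empty virus (-0.30 ± 0.08 log2, adjusted p = 0.0193) and 30.4 and 29.0 against 33.4 and 37.9 CPM with the Cdh1 virus (-0.26 ± 0.07 log2, adjusted p = 0.0395). The first call was lost without control replicate 1 (0.180) or inhibitor replicate 1 (0.152) and with limma on TPM (0.0833). The second was lost without control replicate 2 (0.456) or inhibitor replicate 2 (0.196), with limma on TPM (0.0979), with only these groups in the fit (0.136) and with the replicate block (0.0518). In the timecourse at day 2 it was at 37.2 and 37.8 against 33.1 and 35.3 CPM, the other direction (0.13 ± 0.05 log2, adjusted p = 0.0852). The early window at day 4 gave 26.6 and 25.2 CPM (-0.18 ± 0.06 log2, adjusted p = 0.0445), a call lost without any 1 of its 4 libraries (0.0804 to 0.375).

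Igfbp7, a secreted relative with low affinity for the IGFs, overlaps Polr2b in the RefSeq annotation, and the labels do not state stranded counting, so reads of the overlap cannot be told apart. It fell from 451 and 391 CPM in timecourse MEFs to 114 and 118 CPM at day 2 (-1.85 ± 0.05 log2, adjusted p = 1.10e-18) and to 67.6 and 66.5 CPM at day 4 (-0.80 ± 0.05 log2, adjusted p = 1.40e-11). In empty virus cells it was at 209 and 224 CPM in MEFs and 226 and 220 CPM at day 2, overlapping (adjusted p = 0.588). Sorted control cells of day 5.5 had 266 and 288 CPM (CDH1-) and 306 and 301 CPM (CDH1+). The inhibitor raised it at day 2 in the timecourse to 143 and 133 CPM (0.25 ± 0.05 log2, adjusted p = 0.00143). At day 4 the early window had 88.2 and 87.5 CPM (0.39 ± 0.05 log2, adjusted p = 7.33e-05), the mid window 85.1 and 89.3 CPM (0.38 ± 0.06 log2, adjusted p = 2.15e-05) and the full window 122 and 123 CPM. At day 5.5 it was lower with the inhibitor in CDH1+ cells, 265 and 282 against 306 and 301 CPM (-0.15 ± 0.03 log2, adjusted p = 7.35e-05). In CDH1- cells it was at 256 and 258 against 266 and 288 CPM (-0.11 ± 0.03 log2, adjusted p = 0.00618), a call lost without control replicate 2 (0.380), with DESeq2 (0.0741) and with limma on TPM (0.190). In day 2 cells with the empty virus it was not called, at 217 and 231 with inhibitor against 226 and 220 CPM, overlapping. In day 2 cells with the Cdh1 virus it was at 262 and 264 against 209 and 237 CPM (0.24 ± 0.06 log2, adjusted p = 0.0351). That call was lost without control replicate 1 (0.352) or inhibitor replicate 2 (0.128), with limma on TPM (0.120) and with only these groups in the fit (0.130).

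**Figure D5:**
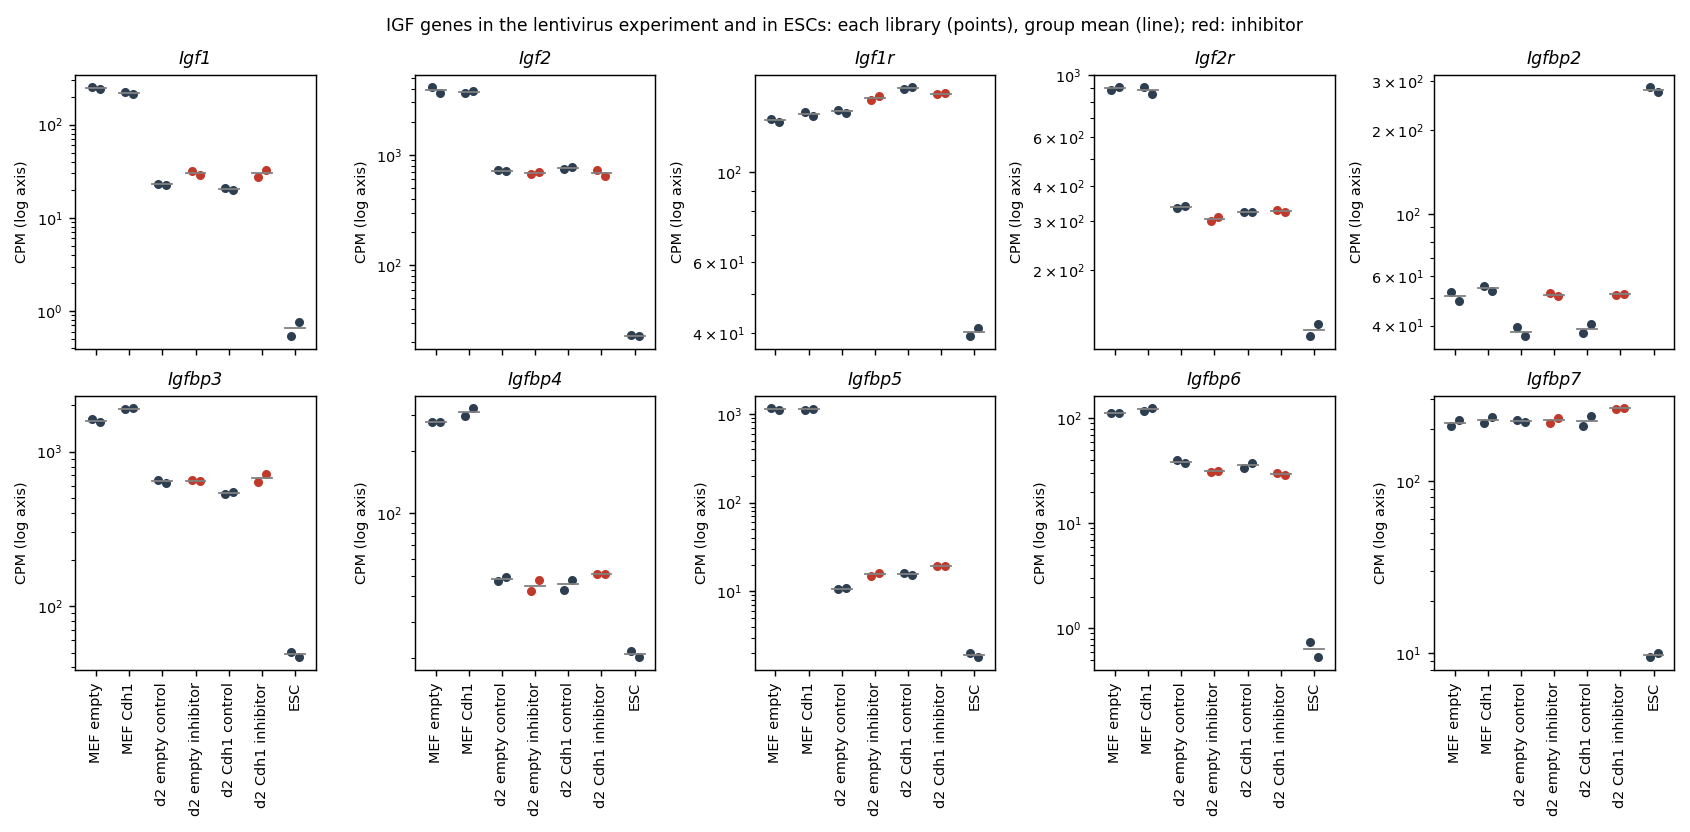
Level of each IGF gene (CPM, log axis) in every lentivirus and ESC library, with points for libraries and a line for the mean of 2, red with inhibitor. Igfbp5 falls from 1162 and 1095 CPM in MEFs with the empty virus to 10.6 and 10.9 CPM at day 2, and Igfbp2 alone is highest in ESCs (286 and 275 CPM).

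Of 54 other genes of the IGF pathway, 50 were in the files, and the other 4, all RNAs of the imprinted loci (H19, Airn, Igf2as and Igf2os), were not analysed here. Igfbp1 and Ins2, the neighbours of Igfbp3 and Igf2, were at or close to 0 in every library. At day 2 the inhibitor called 13 of the 46 tested (2 higher, 11 lower; 17.8% of all genes; median -0.02 log2, against -0.0046 log2 over all genes). In the mid window 22 of 46 were called (6 higher, 16 lower; 27.4% of all genes; median -0.07 log2 against 0.01), and in mid against early 17 (5 higher, 12 lower; 21.2% of all genes). In the sort 12 of 45 were called in CDH1- cells (3 higher, 9 lower; 18.7% of all genes) and 10 in CDH1+ cells (1 higher, 9 lower; 18.8% of all genes). With the empty virus 6 of 47 were called (2 higher, 4 lower; 6.73% of all genes) and with the Cdh1 virus 4 (3 higher, 1 lower; 5.05% of all genes).

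Among the proteases, Htra1, a serine protease that can cleave binding proteins, was at 66.01 and 67.2 CPM with inhibitor against 43.6 and 44.4 CPM at day 2 in the timecourse (0.60 ± 0.04 log2, adjusted p = 6.93e-14). It was at 94.8 and 97.1 CPM in the mid window against 72.1 and 73.9 CPM in the day 4 controls (0.40 ± 0.04 log2, adjusted p = 1.23e-10). Pappa2, a metalloprotease that cleaves IGFBP5, was between 0.324 and 0.596 CPM in the 4 day 2 timecourse libraries and at 4.27 and 4.31 CPM in the day 4 controls. It rose to 7.27 and 7.32 CPM with the early window (0.76 ± 0.11 log2, adjusted p = 2.37e-06) and 16.1 and 15.4 CPM with the mid window (1.87 ± 0.10 log2, adjusted p = 8.14e-18), and mid against early gave 1.11 ± 0.09 log2 (adjusted p = 5.65e-12). Of the 7 proteases and inhibitors 4 were higher and none lower in the mid window, where 27.4% of all genes were called and 14% were higher. At day 5.5 Pappa2 was under 1 CPM in all 8 libraries. Pappa, the gene of PAPP-A, moved in both directions. With the inhibitor it was lower in CDH1- cells (-0.24 ± 0.03 log2, adjusted p = 6.16e-10). In day 2 cells it was higher with the empty virus (0.44 ± 0.08 log2, adjusted p = 0.000945) and with the Cdh1 virus (0.27 ± 0.07 log2, adjusted p = 0.0339).

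The 3 genes of the IGF2 mRNA-binding proteins, which bind the Igf2 transcript, were all lower with the inhibitor in part of the comparisons. These were day 2 in the timecourse, the mid window and both fractions of the sort. Of all genes, 9.11% were lower at day 2, 10.8% in CDH1- and 10.5% in CDH1+ cells. In the mid window 27.4% were called in either direction. With the Cdh1 virus Igf2bp1 alone of these 3 was called (-0.36 ± 0.07 log2, adjusted p = 0.00199). In a joint fit, the timecourse effect at day 2 minus the empty virus effect was -0.30 ± 0.08 log2 for Igf2bp1 (adjusted p = 0.0252). Igf2bp2 and Igf2bp3 were not called there. Igf2bp1 was at 55.1 and 54.7 against 70.8 and 71.9 CPM at day 2 (-0.38 ± 0.04 log2, adjusted p = 2.09e-08) and at 43.2 and 42.2 against 58.1 and 60.6 CPM in CDH1- cells (-0.47 ± 0.04 log2, adjusted p = 5.32e-16). Grb10, an imprinted gene whose adaptor protein dampens signalling by the IGF1 and insulin receptors, was lower in CDH1- cells (940 and 962 against 1209 and 1198 CPM, -0.34 ± 0.02 log2, adjusted p = 1.16e-23). It was lower too in CDH1+ cells (919 and 900.2 against 1158 and 1178 CPM, -0.36 ± 0.02 log2, adjusted p = 2.54e-25). Plagl1, an imprinted zinc-finger gene, was at 127 and 126 against 156 and 151 CPM at day 2 (-0.28 ± 0.03 log2, adjusted p = 4.31e-08).

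The genes most like Igf2 and Igfbp5 over the 11 groups of the timecourse and sort were found by Pearson's r of mean log2 CPM among 10412 genes, as a description of group means that share libraries. For Igf2 they were Etv6 (r = 0.991), Arhgap28 (0.989) and Fbln5 (0.989). For Igfbp5 they were A430107O13Rik (0.992), Ptn (0.981) and Mfap4 (0.976). Ptn, which encodes the secreted factor pleiotrophin, was on the scale common to both experiments at 439 CPM in MEFs, 46.6 at day 2 and 137 at day 4 without inhibitor. With the early, mid and full windows it was at 109, 118 and 79.3 CPM, so mid was above early, unlike Igfbp5. Mfap4 was at 18.8 CPM at day 4 without inhibitor and at 19.4, 21.5 and 14.4 CPM with these windows. By rank, the correlation of Ptn with Igfbp5 was 0.855 (Spearman).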

How the data were processed

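The deposited tables give RSEM expected counts and TPM for each gene of each library, per the file headers. RSEM 1.2.4, Bowtie and Trimmomatic and the builds mm9 and hg18 are named in the submitters' processing notes. The polyadenylated RNA libraries were made with a TruSeq V2 kit, and human 293T RNA (20 ng) had been added to the RNA of the timecourse and sort samples (1 ug), per the labels' protocols. No value of that RNA was used here. Strandedness of counting is not given in the sources used here.

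The deposited expected counts were rounded and fitted with edgeR 4.0.16 (R 4.3.3; TMM scaling, quasi-likelihood F test, 1 coefficient per group). There was 1 fit per experiment, over the 14 timecourse, the 8 sort, and the 14 lentivirus and ESC libraries. Genes were filtered with filterByExpr (minimum count 10, minimum total 15), which left 14473, 13968 and 15044 genes. Calls were made at 0.05 on p-values adjusted by the Benjamini-Hochberg method over all genes of the fit. The deposited TPM were used to compare genes with each other, as mean ± SD. A further 2 comparisons, between experiments, came from a joint fit of 28 libraries that was added after seeing the data. The members and lists were chosen with earlier results of these data known. Named were the 10 members, and, of the other pathway genes, up to 4 per comparison with the smallest p among those called. Also named were the 3 genes most like Igf2 and the 3 most like Igfbp5, among genes with a mean of at least 10 CPM in 1 group or more (pseudocount 0.5 CPM). Alternatives were DESeq2 1.42.0, RLE and upper quartile scaling, no filter, limma 3.58.1 on log2(TPM + 1), only the groups compared, a replicate block and each library left out. The fit of each experiment, but not the joint fit, was run for 1 contrast on simulated libraries drawn independently. Such libraries cannot show whether the 2 of a group came from separate cultures, and nothing is read from them here. Tables and figures used Python 3.11.15, pandas 2.3.3, numpy 2.4.6 and matplotlib 3.10.9. Promoter windows are from RefSeq.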

Additional observations from a re-analysis of the deposited data

Results flagged for a closer look

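The timecourse and the lentivirus experiment both hold MEFs and day 2 cells with and without inhibitor, and the IGF genes differed between them under the same contrast. These differences come from a joint edgeR fit added after seeing the data, and each value is the timecourse effect minus the effect in cells with the empty virus, on the log2 scale. The change from MEFs to day 2 differed for 9 of 10 members, where 54.9% of all genes were called (25.8% higher, 29.1% lower). It was higher in the timecourse for Igfbp3 (2.68, adjusted p = 1.09e-27), Igfbp4 (1.5, 1.86e-18), Igf1 (0.87, 1.49e-07), Igfbp5 (0.69, 2.16e-08) and Igfbp6 (0.35, 0.000767). It was lower for Igfbp2 (-2.82, 6.02e-21), Igfbp7 (-1.91, 9.28e-21), Igf2 (-0.98, 1.20e-13) and Igf1r (-0.41, 3.11e-05; 0.230 with limma on TPM). Igf2r was not called (0.06 ± 0.07 log2, adjusted p = 0.492).

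The inhibitor effect at day 2 differed for 4 of 10 members, against 3.39% of all genes (2.09% higher, 1.3% lower). The differences were -0.35 for Igf1r (adjusted p = 0.00668), -0.33 for Igf2 (0.0106), 0.33 for Igfbp3 (0.00457) and 0.43 for Igfbp6 (0.00449). Igf1r was lost without timecourse control replicate 2 (0.0821), and Igf2 without timecourse control replicate 2 (0.0623) or timecourse inhibitor replicate 2 (0.0579). The experiments also differed in the virus, the added human RNA, the depth and the reads. The lentivirus samples are described without paired-end reads. Effective gene length, by which TPM is scaled, averaged 59.9 to 88.8 bases below gene length in the timecourse and 0.0 below it in the lentivirus experiment. The part of these differences was not tested.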

How the results depend on the processing

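For 128 pairs of IGF gene and comparison, 1478 alternatives were computed, of which 1394 kept the direction and the call, 74 lost it, 3 gained it and 7 had another sign. Another 72 pairs that had not been called were not followed one by one, and of their 872 alternatives 24 were called and 59 had another sign without being called. Of the 10 IGF genes, DESeq2, no filter and a fit of only the groups compared each called 2 for the Cdh1 virus at day 2 and 1 for the Cdh1 virus in MEFs. For the inhibitor with the Cdh1 virus, limma on TPM and only the groups compared each called 2, and with the empty virus limma called 2. DESeq2 called 1 for the difference between the viruses in the inhibitor effect. With 1 library left out, the count was 5 to 7 for CDH1+ against CDH1- cells, 3 to 5 for mid against early, 2 to 6 for the inhibitor with the Cdh1 virus and 2 to 4 with the empty virus. It was 2 to 4 for the difference between experiments in the inhibitor effect.

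Other signs were seen for differences that had not been called, and limma on TPM called 2 of these. Igf1r from MEFs to day 2 with the empty virus was at -0.13 log2 with limma (adjusted p = 0.0292), and Igfbp7 at -0.17 with limma (adjusted p = 0.0491) and -0.0096 to 0.093 with 1 library left out (below 0 without empty virus MEF replicate 1). In MEFs with the Cdh1 virus, Igf2 was at -0.147 to 0.028 (above 0 without empty virus MEF replicate 1) and Igfbp5 at -0.048 to 0.040, above 0 without empty virus replicate 1 or Cdh1 virus replicate 1 (0.017). The Igf2 difference between viruses in the inhibitor effect was at -0.162 to 0.017 (above 0 without Cdh1 virus inhibitor replicate 2). The cause of these changes was not tested.

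Over all genes, DESeq2 called 2243 for CDH1+ against CDH1- cells (3717 with edgeR), 1396 and 1460 for the inhibitor in CDH1- and CDH1+ cells (2607 and 2631), 10 for their difference (26) and 24 for the difference between viruses (0). limma called 79 for the Cdh1 virus at day 2 (135), 495 for the early window (815), 249 for the inhibitor with the Cdh1 virus (759) and 8 for the difference between fractions. Only the groups compared gave 208, 1544 and 138 for the first 3 of these, and 876 for the difference between experiments in the inhibitor effect (524). No filter gave 867 for the latter and 5 for the difference between viruses. With 1 library left out, counts were 63 to 74 for the Cdh1 virus at day 2, 87 to 133 in MEFs, 1510 to 1583 for the inhibitor at day 2, 380 to 450 for the early window and 1667 to 2385 for mid against early. They were 124 to 1253 for the inhibitor with the Cdh1 virus, 270 to 896 with the empty virus, 1674 to 1883 in CDH1+ cells, 0 to 2 for the difference between viruses and 253 to 687 for that between experiments. A group left with 1 library was assumed to vary like the others.

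Correlations of same-numbered deviations ran from -0.449 to 0.163 in the timecourse, -0.121 to 0.110 in the sort and -0.252 to 0.289 in the lentivirus experiment. With groups of 2 libraries these cannot tell whether a replicate number marks a shared culture or day. A replicate block called 5 instead of 6 IGF genes for the inhibitor with the Cdh1 virus (Igfbp6, adjusted p = 0.0518), changed no other count of IGF genes, and called 2561 instead of 2583 genes for the inhibitor at day 2. The groups of 2 libraries limit all of these tests, and the low levels of Igfbp2 and Igfbp5 at day 2 limit theirs.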
